A study of Homo sapiens with 2 samples.

Results

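The genes examined here encode the actin and tubulin cytoskeleton, and they were taken as a fixed list of 47 members: the alpha, beta and gamma tubulins, the cytoplasmic actins, the Arp2/3 complex, monomer-binding and turnover factors, tropomyosins, actinins, non-muscle myosin II, capping protein, the ezrin-radixin-moesin linkers, vimentin, and a few microtubule regulators and motors. A member was credited with every YBX1 binding site whose midpoint lay in its annotated span on its own strand. By this rule, 18 of the 2054 listed sites lay in 12 of the 47 genes, and the other 35 genes had no listed site. The sites came from PAR-CLIP in HEK293, a human embryonic kidney line, with 2 replicates of a single condition that were pooled by the authors into 1 list, and there was no control sample. For the pull-down, the labels give the YBX1 antibody D2A11. The methods instead give an anti-FLAG antibody, used on T-REx HEK293 Flp-In cultures under stable overexpression of YBX1 that carries a FLAG/HA tag. The cells received 4-thiouridine (4SU), a uridine analog that enters new RNA and crosslinks to bound protein under UV light, and unprotected RNA was removed with RNase T1, which cuts after G. The list gives positions only. Reads per site and scores are not in it, so depth is unknown, no site can be called stronger than another, no replicate spread exists, and no test between conditions is possible. All intervals below are 95% intervals that cover at most counting error.

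YBX1 is a cold-shock domain protein that coats cytoplasmic mRNA, and it is known for its part in translation and in the stability of bound transcripts. Microtubules are polymers of alpha and beta tubulin dimers, which grow and shrink at their ends and carry kinesin and dynein motors. Actin filaments are built from actin monomers, branched by the Arp2/3 complex, capped, severed by cofilin, wrapped by tropomyosin and pulled by myosin II. Most of these proteins come from families of closely related genes, and many of the genes also have processed pseudogenes, so the uniqueness of each site is given with it.

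The sites in the tubulin genes are shown first because TUBB held more sites than any other of the 47 genes. They are written 5′ to 3′ on the RNA strand, and capitals mark matches to CAUC or CACC, to CAAC, or to AACA or AACU. These 5 tetramers hold C and A and were searched on the RNA strand only, and matches may overlap.
TUBB 5′UTR: cauucCAACcuuccagccug
TUBB coding, codon 218: accaCACCAACcuacggggaucug
TUBB coding, codon 255: uCAACAugguccccuucccacg
TUBB 3′UTR, first: uuaauacuuccucuuaaaaaucuccaag
TUBB 3′UTR, second: uauuaucuccacuuucaaucucccuccaag
TUBA1B 3′UTR: uaauauuuuucCAUCauaucucaaag

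Sites in the genes of the actin system and of vimentin are given in the same way, so that their bases can be set beside those of the tubulin sites.
ARPC5 3′UTR: auucccacuuuaaAACAcuuccag
CFL1 5′UTR or intron: cggauacgcguuucug
CFL2 3′UTR, first: cauucauaCACCuCACCug
CFL2 3′UTR, second: cucacuucaAACUCAACcuucccag
TPM4 3′UTR, first: ccCAACUucauuuccauacuucag
TPM4 3′UTR, second: uuuacaauucCAACUaaaaauCACCcug
MYH9 coding: acuccaAACUccauucccaag
CAPZA1 3′UTR: agacacauuCAUCcuucucccucug
VIM coding or 3′UTR: ccucuuccaAACUuuuccucccug

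The last group holds the sites of a tubulin-binding protein and of the heavy chains of both classes of microtubule motor.
STMN1 3′UTR: ucacuuuucaaucccaauucug
KIF5B 3′UTR: auuaAACAuaauuuuauacg
DYNC1H1 coding or 3′UTR: auuuccuauAACAUCAACAuag

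Of the 47 genes, 12 had at least 1 site, which is 25.5% (Wilson interval 15.3 to 39.5%). Among all 20046 protein-coding genes, 1366 had at least 1 site, or 6.81%. At least 2 sites were listed for 3 of the 47 genes (6.38%, Wilson interval 2.19 to 17.2%), against 304 of all protein-coding genes, or 1.52%. When only site sequences found at a single place in the genome were counted, the same number of members, 12, had at least 1, and the share over all protein-coding genes was 6.42% (1286 genes). The 47 genes were chosen with earlier results of these data known, and whether that choice raised their share was not tested. Expression in HEK293 was not used here, so the background is all protein-coding genes and not the expressed ones, and a gene with no listed site is described only as that.

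**Figure D1:**
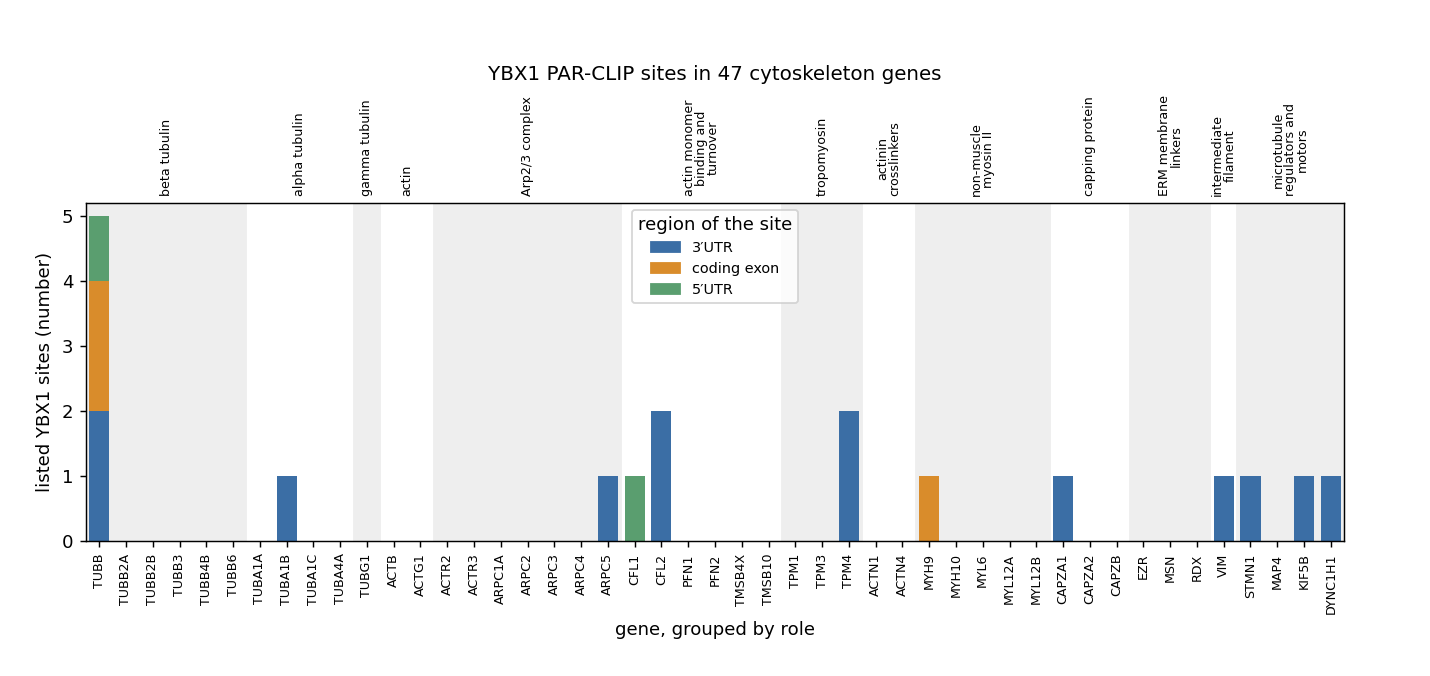
Number of listed YBX1 sites (vertical axis) in each of the 47 cytoskeleton genes (horizontal axis), grouped by role, with colours for the region of the site over all GENCODE transcripts. TUBB reaches 5 sites, CFL2 and TPM4 have 2 each, 9 genes have 1 each, and the other 35 have none.

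Among the beta tubulins, TUBB was the only one of 6 with a listed site, and it had 5. TUBB encodes the widely expressed beta tubulin of the class I isotype. Across all protein-coding genes, 12 had more sites than TUBB and 16, TUBB included, had 5. No site was listed in TUBB2A, TUBB2B, TUBB3, TUBB4B or TUBB6. The TUBB sites lay in all 3 regions of its mRNA of 2515 nt, the 5′UTR, the coding sequence and the 3′UTR, and the last one ended 453 nt before the mRNA end.

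The 5′UTR site of TUBB lay on chromosome 6 from 30720408 to 30720427 (GRCh38, plus strand), starting at nucleotide 57 of the mRNA in exon 1 of 4. In 1 other transcript the same bases were intronic. The coding sites lay in exon 4, at 30723714 to 30723737 over codons 218 to 225 and at 30723826 to 30723847 over codons 255 to 262. These 2 sites were separated by 88 nt. The 3′UTR sites, at 30724671 to 30724698 and 30724940 to 30724969, began 274 and 543 nt after the stop codon of a 3′UTR of 1025 nt and were 241 nt apart. Both 3′UTR sites held none of the 5 tetramers, whereas the 5′UTR site held 1 and each coding site held 2. In the deposited list the gene name is missing for all 5 TUBB rows (and for 134 of all 2054 rows), so TUBB does not appear there by name, and the HOMER classes of these rows were coding exon for the coding sites and non-coding exon for the other 3.

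TUBA1B, one of the alpha tubulins, had 1 site, and TUBA1A, TUBA1C and TUBA4A had none. It lay in the short 3′UTR of 176 nt on chromosome 12 from 49127802 to 49127827 (minus strand), 131 nt after the stop codon and 20 nt before the end of the mRNA. This was the site nearest to an mRNA end among the 17 sites that could be placed on the chosen transcript. The antisense gene TUBA1B-AS1 covers the same bases on the other strand, but the list is stranded and its strand is that of TUBA1B. No site was listed in TUBG1, the gamma tubulin from which microtubules are nucleated.

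No site was listed in ACTB or ACTG1, which encode the cytoplasmic actins. In the Arp2/3 complex, which starts new filament branches, 1 of 7 subunit genes had a site. This was ARPC5, with a site on chromosome 1 from 183625779 to 183625802 (minus strand), 1730 nt into a 3′UTR of 6686 nt, the longest of the 47. ACTR2, ACTR3, ARPC1A, ARPC2, ARPC3 and ARPC4 had none.

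Of the 6 genes for monomer binding and filament turnover, both cofilins had sites, while the profilins PFN1 and PFN2 and the thymosins TMSB4X and TMSB10 had none. Cofilin severs ageing actin filaments. CFL2, the form best known from muscle, had 2 sites in its 3′UTR of 3752 nt on chromosome 14 (minus strand), at 34712417 to 34712435 and 34709710 to 34709734. They began 430 and 3131 nt after the stop codon, and 2682 nt lay between them, the largest distance along the mRNA between neighbouring sites of 1 member. CFL1, the non-muscle form, had a site of a different kind. It was 16 nt wide, the narrowest of the 18, on chromosome 11 from 65857098 to 65857113 (minus strand), and it lay in an intron in 9 transcripts, including the chosen one, and in the 5′UTR in 1 transcript.

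Among the actin-binding proteins along the filament, tropomyosin TPM4 had 2 sites and TPM1 and TPM3 had none. The TPM4 sites lay on chromosome 19 from 16102539 to 16102562 and from 16102779 to 16102806 (plus strand), 1193 and 1433 nt into a 3′UTR of 1656 nt and 216 nt apart. Neither of the actinin crosslinkers ACTN1 and ACTN4 had a site. MYH9, the heavy chain of non-muscle myosin IIA, had 1 site in its coding sequence, on chromosome 22 from 36305069 to 36305089 (minus strand), over codons 725 to 731 in exon 18 of 41. The other heavy chain, MYH10, and the light chains MYL6, MYL12A and MYL12B had none.

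CAPZA1, a subunit of the protein that caps the growing end of actin filaments, had 1 site on chromosome 1 from 112670606 to 112670630 (plus strand), 474 nt into a 3′UTR of 1484 nt. The other capping protein genes, CAPZA2 and CAPZB, had none, and neither had the linkers of actin to the membrane, EZR, MSN and RDX. VIM, the intermediate filament protein vimentin, had 1 site on chromosome 10 from 17235856 to 17235879 (plus strand). On the chosen transcript it covered codons 414 to 421 in exon 8 of 10, and in 1 other transcript the same bases were 3′UTR.

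Of the 4 microtubule regulators and motors, 3 had a site, and MAP4, a microtubule-stabilising protein, had none. STMN1, or stathmin, which binds tubulin dimers and promotes microtubule shrinkage, had its site on chromosome 1 from 25900627 to 25900648 (minus strand), 368 nt into a 3′UTR of 900 nt. KIF5B, the heavy chain of kinesin-1, had its site on chromosome 10 from 32010589 to 32010608 (minus strand), 929 nt into a 3′UTR of 2522 nt. DYNC1H1, the heavy chain of cytoplasmic dynein, had its site near the start of a very long coding sequence, on chromosome 14 from 101975750 to 101975771 (plus strand). It covered codons 99 to 106 in exon 2 of 78, and was coding in 31 transcripts and 3′UTR in 1 short transcript.

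**Figure D2:**
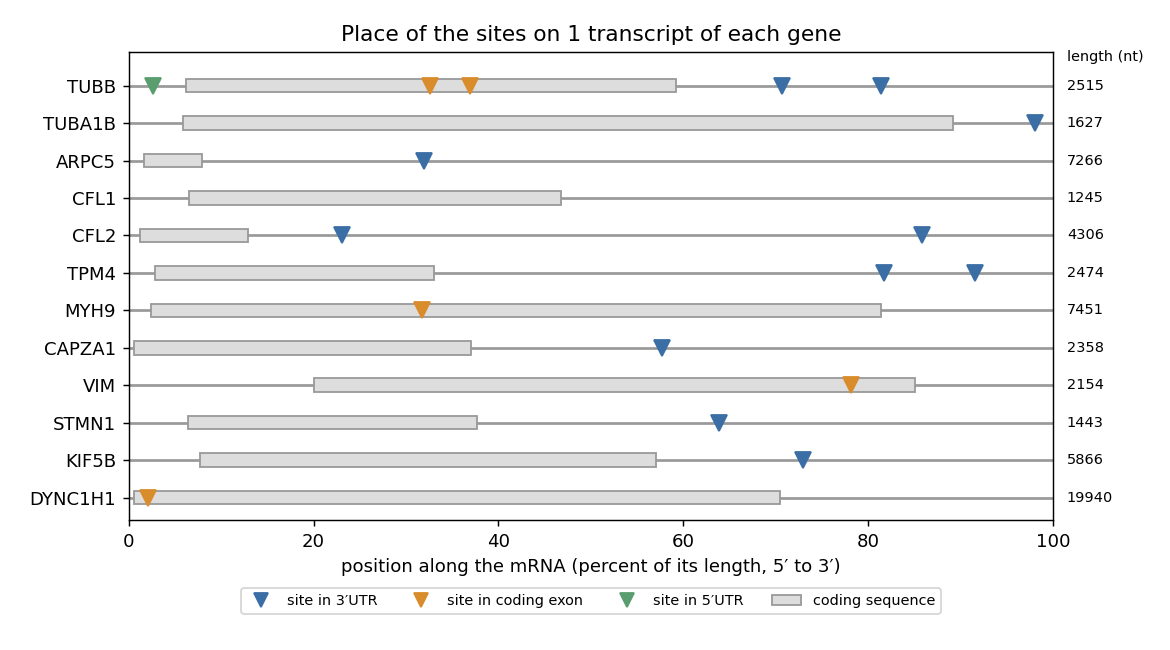
Position of each site (triangles) along the chosen transcript of the 12 genes with a site, as a percent of the mRNA length, with the coding sequence as a grey box and the mRNA length in nt at the right. TUBB is the only gene with sites in the 5′UTR, the coding sequence and the 3′UTR, and CFL1 shows no triangle because its site is intronic in the chosen transcript.

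Over all transcripts, with the 3′UTR taking precedence, 13 of the 18 sites lay in a 3′UTR (72.2%, Wilson interval 49.1 to 87.5%), 3 in a coding exon and 2 in a 5′UTR. Among all 2054 sites the share in 3′UTRs was 55.4%, inside that interval. The 2054 also hold sites in introns, in noncoding exons or outside genes, while the 18 lie in protein-coding genes by rule. The shares over all sites in this paragraph are thus not over a like set of sites. The intervals here also take the 18 sites as independent, although TUBB gave 5 of them and CFL2 and TPM4 2 each. They may therefore be too narrow. The share in coding exons was 16.7% (Wilson interval 5.84 to 39.2%) against 23.6% of all sites. That in 5′UTRs was 11.1% (Wilson interval 3.10 to 32.8%) against 1.17% of all sites, which lies below the interval. It rests on 1 site of TUBB and the CFL1 site. Each of them is 5′UTR in only 1 transcript. The TUBB site is intronic in 1 other transcript and the CFL1 site in 9. On 1 transcript per gene, 11 sites were in a 3′UTR, 5 in a coding exon, 1 in a 5′UTR (5.56%, Wilson interval 0.988 to 25.8%) and 1 in an intron, since the VIM and DYNC1H1 sites then became coding and the CFL1 site intronic. The HOMER classes of the same 18 rows differed more, with 5 in a 3′UTR, 5 in an exon, 4 in a non-coding exon, 3 at a transcript end and 1 in an intron. The sites of TUBA1B and ARPC5 and the second CFL2 site were those called transcript ends, and all 3 lay in the 3′UTR of the GENCODE transcript.

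Density along the 3′UTR could be given for the 8 genes with a site in the 3′UTR of the chosen transcript. TUBA1B had 5.68 sites per kb, from 1 site in a very short 3′UTR, and TUBB had 1.95, TPM4 1.21 and STMN1 1.11. CAPZA1 had 0.674, CFL2 0.533, KIF5B 0.397 and ARPC5 0.150 sites per kb. These values and their order lean on the 3′UTR chosen, since every gene but TUBB, TPM4 and CFL2 had only 1 site there. Over the union of all annotated 3′UTR bases, TUBA1B fell to 0.600 per kb (1666 nt) and TPM4 to 0.617, below STMN1 with 0.845 and CAPZA1 with 0.674, while TUBB had 1.75. TPM4 had 0.604 on the chosen transcript when its repeated site was left out. Pooled, the 8 genes had 11 sites in 18.2 kb, or 0.604 per kb (exact Poisson interval 0.302 to 1.08), and the 746 protein-coding genes with a 3′UTR site had 0.397 per kb, which lies inside that interval. The interval takes the 11 sites as free counts, although each gene was chosen for having at least 1. It thus does not measure the counting error of this density, and no conclusion is drawn from it. By the median over genes, the 8 had 0.892 per kb and the 746 had 0.454, with median 3′UTRs of 1570 and 2646 nt. All these values are over genes chosen for having such a site and describe only these.

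The base content of the 18 sites was close to that of the whole list. Together the 18 sites held 28.1% A, 34.0% C, 7.14% G and 30.7% U over 420 bases, and A and C made up 62.1% (Wilson interval 57.4 to 66.7%) against 61.7% over the 1860 sites in transcripts. This interval takes the 420 bases as independent, although they are neighbours within 18 sites, so it is too narrow. The share of C was 34.0% against 29.1% in all transcript sites, and that of A was 28.1% against 32.6%. Single sites ranged widely. MYH9 had the highest share of A and C, 76.2%, followed by the second CFL2 site with 72.0%, while CFL1 had the lowest, 37.5%, and the TUBA1B site, the STMN1 site and the KIF5B site had 53.8, 54.5 and 55.0%. The number of U, the bases at which 4SU can crosslink, ran from 3 in the TUBB site at codon 218 to 11 in the second TUBB 3′UTR site and in TUBA1B, with a median of 7.5. All 18 sites ended in G (87.6% of all sites did), which is no independent finding, since the last base was read as the one where the G left by RNase T1 lies. A G came just before 14 of the 18 sites (77.8%, against 79.2% of all sites).

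**Figure D3:**
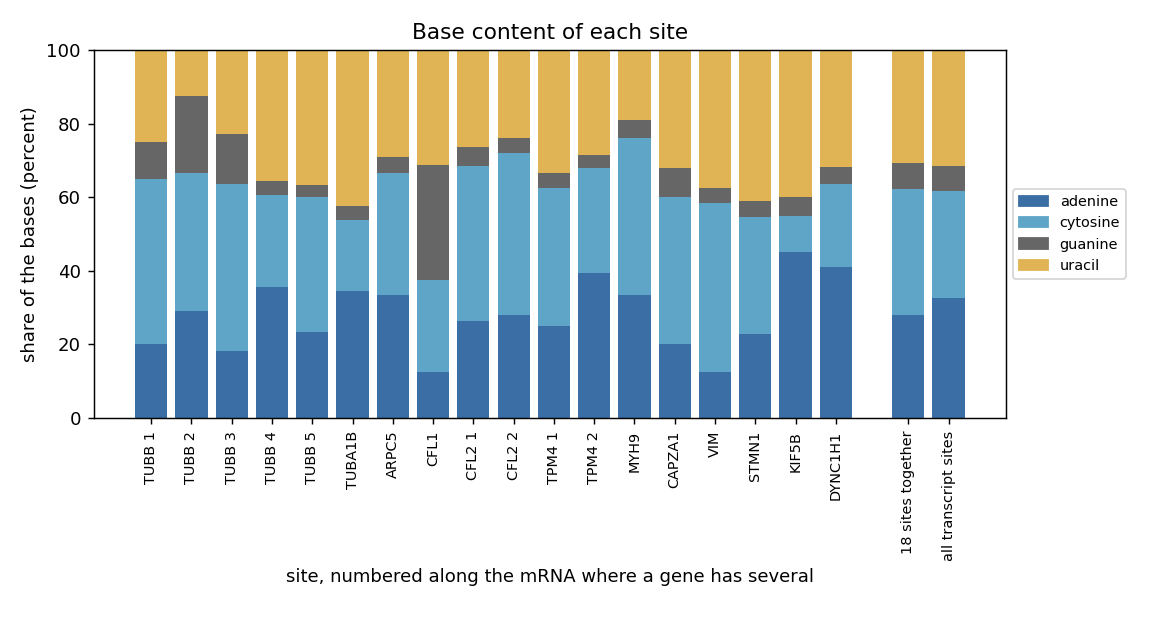
Share of adenine, cytosine, guanine and uracil (percent of the bases) in each of the 18 sites, in all 18 together and in all 1860 sites in transcripts. CFL1 stands out by its guanine and its low share of adenine and cytosine (37.5%), and the 18 sites together (62.1% adenine and cytosine) are close to all transcript sites (61.7%).

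At least 1 of the 5 tetramers occurred in 14 of the 18 sites (77.8%), against 72.8% of all transcript sites. CAAC was in 7 (38.9% against 28.1%), AACU in 5 (27.8% against 29.1%), AACA in 4 (22.2% against 32.0%), and CAUC and CACC in 3 each (16.7% against 26.7% and 15.2%). With 18 sites, 1 site is worth 5.56 percentage points. The sites with the most tetramers were the second TPM4 site, which held CAAC, AACU and CACC, and the DYNC1H1 site, which held AACA, CAUC and CAAC. The sites with none were both 3′UTR sites of TUBB and those of CFL1 and STMN1. A match is a description of letters and not a measured contact.

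Because the beta tubulins are alike in their coding sequence, the coding sites of TUBB were compared with the same codons of the other beta tubulins. Capitals in the lines below mark bases that differ from the TUBB site, and positions are counted from 1 at the 5′ end of the site.
TUBB2A and TUBB2B, codon 218: accacCccCaccuacggggaCcuC
TUBB3, codon 218: GccacGccCaccuacggggaCcuC
TUBB4B, codon 218: accacGccCaccuaUggUgaCcug
TUBB6, codon 218: acAacGccCaccuacggggaCcuC
TUBB2A and TUBB2B, codon 255: uGaacaugguGcccuucccUcg
TUBB3, codon 255: ucaacaugguGcccuucccGcg
TUBB4B, codon 255: uGaacauggucccGuuUccCcg
TUBB6, codon 255: uGaacaugguGcccuucccGcg

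At codon 218 the other beta tubulins differed from TUBB at 4 positions (TUBB2A and TUBB2B) or 5 (TUBB3, TUBB4B and TUBB6), and A9C and U21C were common to all of them. A9C takes away the CAAC of TUBB, and a change at position 6 (A6C in TUBB2A and TUBB2B, A6G in TUBB3, TUBB4B and TUBB6) takes away its CACC. Each of these genes holds a CACC at a different place in the window, and TUBB6 holds a CAAC at a different place through C3A. At codon 255 the differences were fewer, with 2 in TUBB3 (C11G and A20G), 3 in TUBB2A, TUBB2B and TUBB6, and 4 in TUBB4B. There AACA is shared by all, and CAAC is lost through C2G in TUBB2A, TUBB2B, TUBB4B and TUBB6 but kept in TUBB3. In every one of these pairs at least 2 of the differences were not between U and C, the change that a crosslinked 4SU leaves in the reads. TUBB4A, a beta tubulin outside the 47 genes, came closer at codon 255 only when differences between U and C are set aside. There it kept both CAAC and AACA and differed by C11U, C17U and A20U. That is 3 differences against 2 in TUBB3, but only 1 of the 3 was not between U and C. At codon 218 TUBB4A differed at 4 positions. No listed site lay in TUBB4A or in the other 5 genes.

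The MYH9 site was also compared with the other myosin II heavy chains. The best match in MYH10, the heavy chain of non-muscle myosin IIB, began at codon 763 and differed at 5 positions, of which C9U and U10G break the AACU. MYH14 differed at 5 as well. The other sites had no counterpart as close, as each differed from the best window of its compared paralogs at 6 or more positions (DYNC1H1 was not compared). In TUBB the 5′UTR and 3′UTR sites differed at 7 or more from every other beta tubulin compared, so the likeness of the beta tubulins lay in the coding sites.
MYH10, codon 763: acuccaaaUGcUauuccUaaA

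Across the whole genome, 17 of the 18 site sequences occurred once. The exception was the first TPM4 site, whose 24 bases also occur on chromosome 10 from 100112942 to 100112965 (minus strand), within an intron of the pseudogene CYP2C23P and in no exon. Of all 2049 sites of at most 60 nt, 167 (8.15%) had another exact copy. No site sequence was shared exactly with another member. The second TPM4 site occurred once, so TPM4 keeps a site when repeated sequences are left out.

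With 1 mismatch allowed, 9 of the 18 sites had another place in the genome, and for 6 of them that place was in an annotated exon on the sense strand. Those of TUBB led the list. The 5′UTR site and both coding sites each had a match in the pseudogene TUBBP1, and the coding sites had 1 more each, in TUBBP6 and in TUBBP9. In TUBBP1 the single difference was in each of the 3 sites a T in one copy and a C in the other, which is also the change by which PAR-CLIP marks a crosslink. The remaining matches in exons were TPM4P2 for the first TPM4 site, CACNA2D4 for CFL1 and BAZ2B for CAPZA1. The first TUBB 3′UTR site, TUBA1B, ARPC5, both CFL2 sites, MYH9, VIM, KIF5B and DYNC1H1 had no other place within 1 mismatch. How the reads of the 3 TUBB sites were shared between TUBB and TUBBP1 was not tested, as the list has no reads.

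If T and C are read as 1 letter, 15 of the 18 sites had another place, 8 of them in an exon, and if at most 2 such differences are allowed, 10 of 18 and 4. These searches, and that with 2 bases trimmed from each end of the site, gave 1342 places, and none overlapped a listed site. Many came from T and C as 1 letter with no limit on differences, with 379 for VIM, 306 for the first CFL2 site and 269 for CFL1. Such places can be unlike the site, as a VIM place with 15 differences in 24 nt. The lack of overlap therefore cannot show how reads were shared. The annotation also holds 139 pseudogenes named after a member or the alpha tubulin family, among them 21 for ACTG1, 13 for the alpha tubulins, 12 for ACTB and 9 for TUBB, and 0 listed sites lay in them on their strand. The share over all annotated pseudogenes was not taken, so no result about these pseudogenes or their parent genes is read from this 0.

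The mRNAs differed strongly in how much of them can be told apart from the rest of the genome. A window of 22 nt, the median width of all sites, was moved along each mRNA, and the share of windows that occur nowhere else was taken. It was lowest in TMSB4X, at 9.32%, and low in TUBA1B (23.5%), ACTB (27.9%), TUBB2A (29.2%), TPM4 (29.8%), ARPC3 (32.0%), TUBA1A (32.3%) and TUBB (40.5%). It was 51.1% in ACTG1 and highest in PFN2, at 99.5%. The genes with a site ran from 23.5 to 97.5% (median 82.5%) and those without from 9.32 to 99.5% (median 66.7%), so the groups overlapped over almost the whole range. Below 50% lay 4 of the 12 genes with a site and 8 of the 35 without.

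In 10 of the 11 tubulin genes, all but TUBB4B, the coding sequence was the more repeated part and the 3′UTR the more distinct one. In TUBA1B 11.3% of coding windows and 80.6% of 3′UTR windows occurred once, and its site was in the 3′UTR. TUBB had 27.1% and 53.4%, with sites in both regions. TUBB2A, which had no site, had 14.3% and 99.4%. ACTB was different, since both regions were repeated, with 28.2% in the coding sequence and 20.2% in the 3′UTR, and TMSB4X had 0% and 5.88%. Sequences with another exact copy do occur in the list, in 167 of the 2049 sites of at most 60 nt. For ACTB, TMSB4X and the repeated coding sequences of the tubulins, how reads that fit several places were handled, and so how readily a site could be listed, was not tested.

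**Figure D4:**
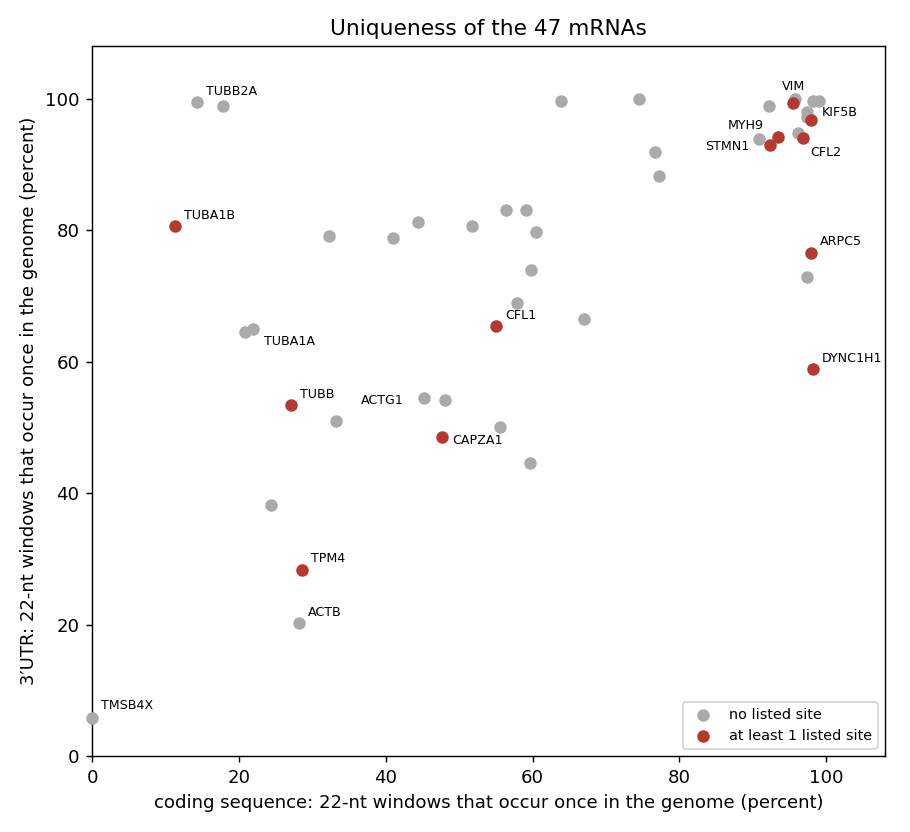
Share of 22-nt windows that occur once in the genome, in the coding sequence (horizontal axis, percent) and in the 3′UTR (vertical axis, percent), for each of the 47 genes, red with and grey without a listed site. TUBB, TUBB2A, TUBA1A and TUBA1B lie at the left, the last at 11.3% and 80.6%, TMSB4X and ACTB lie low in both regions, and genes with a site occur at both ends.

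Genes with a site had the longer mRNAs, with a median of 2494.5 nt and a 3′UTR median of 1436 nt, against 1812 nt and 600 nt for those without. The ranges overlapped over most of their length, as 3′UTRs ran from 176 nt (TUBA1B) to 6686 nt (ARPC5) among the first and from 151 nt (TUBB4B) to 6124 nt (TPM3) among the second. The longest mRNA was that of DYNC1H1 with 19940 nt among the first and that of MAP4 with 9232 nt among the second. Long 3′UTRs with no site were those of TPM3, ACTR3 with 5141 nt and CAPZA2 with 4182 nt.

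The rest of the cytoskeleton was taken from a list of 149 further genes. They were chosen from textbook knowledge, but with earlier results of these data known, so the shares below describe these lists only. Of these, 21 had at least 1 site (14.1%, Wilson interval 9.41 to 20.6%), against the 6.81% of all protein-coding genes and the 25.5% of the 47 members. Together they held 26 sites, of which 18 lay in a 3′UTR, 6 in a coding exon and 2 in an intron. WASL, which activates the Arp2/3 complex, had 4, the plus-end tracking protein MAPRE1 (EB1) and the microtubule-associated protein MAP1B had 2 each, and the others had 1. Counting only site sequences found at a single place in the genome, WASL had 3 and MAPRE1 and MAP1B had 1 each. Beside WASL, the actin nucleation group had 1 each in WASF2, FMNL2, BRK1 and DIAPH1, so that 5 of its 14 genes had a site. The adhesion proteins ENAH, TLN1 (talin) and VCL (vinculin), the septins SEPTIN2 and SEPTIN11, the spectrin SPTBN1 and the actin-binding CTTN and TMOD3 had 1 each. Of the motors and their partners, KIF1A, KIF3B, DCTN2 and DYNLL2 had 1, as did TPX2 and the tubulin TUBE1. No site was listed in the 10 genes of the tubulin ring complex and tubulin folding, the 8 other actins and Arp genes, the 11 other myosins or the 11 other intermediate filament genes.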

How the data were processed

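The only file used was the list of binding sites, which holds positions, strand, gene name and annotation and no measured level. Per the labels and the methods, the authors trimmed reads with cutadapt 1.4.1, aligned them with PARA-suite, called stranded clusters with BMix at default settings from both replicates together and annotated them with HOMER on hg38. Starts were read as counted from 1 and the last base as 1 before the listed end, where the G left by RNase T1 lies on both strands. Genes, exons and codons came from GENCODE release 44 on the same build, a 3′UTR taking precedence over a coding exon, then a 5′UTR, a noncoding exon and an intron, and 1 transcript per gene (MANE Select or canonical) for positions and lengths. Copies of site sequences were searched on both strands of chromosomes 1 to 22, X, Y and M, for sites of at most 60 nt, with Python 3.11.15 and numpy 2.4.6, and the search was tested on simulated data. Intervals are Wilson (shares) and exact Poisson (densities). No test was made, since 1 pooled list has no replicates. Every member with a site is named with all of its sites, and the members without one by role. The members and the lists were chosen with earlier results of these data known. Alternatives covered the placing of sites, their merging, width and uniqueness, the classes, the copy search and the windows for bases and motifs.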

Additional observations from a re-analysis of the deposited data

How the results depend on the processing

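Of 48 alternative settings over 8 results, 37 left the value in the same range (counts within 1.5 times, other values inside their interval). For base content that interval takes neighbouring bases as independent and is too narrow. For density it takes sites as free counts in genes chosen for having a site. The 18 sites in 12 members were the same with any overlap, with whole sites inside the gene, with strand ignored, in exons only and with sites merged within 50 nt. Only sites wider than the median left 10 sites in 7 members and 9 of the other cytoskeleton genes. The authors' gene column left 13 sites in 11 members, since the 5 TUBB rows have no gene name there, and these counts still fell within 1.5 times. The authors' annotation put 5 sites in 3′UTRs. The number of sites whose sequence occurs elsewhere, 1 as exact copy, became 9 with 1 mismatch, 15 with T and C as 1 letter, 7 with 2 bases removed at each end and 0 when only copies in sense exons counted, and 10 with at most 2 differences between T and C, a setting chosen after seeing the data. The share of A and C fell to 54.6% with 10 nt added on each side and rose to 66.9% of A, C and U. No paired analysis was possible because both replicates were pooled into 1 list. The list holds no depth, so a site that few reads would show cannot be told from an absent one, and neither can a gene that is not expressed.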
